A study of Homo sapiens with 6 samples.

Results

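The genes described here are the chemokines, colony stimulating factors and adhesion ligands of human bronchial epithelial cells (HBECs): every gene named CXCL or CCL with a number, *CX3CL1*, *CSF1*, *CSF2*, *CSF3*, *ICAM1* and *VCAM1*. Members were picked out by these names, with no measured value in the rule, and number 44 of the 61228 gene names in the deposited tables, with 14 CXC chemokines, 24 CC chemokines, 1 CX3C chemokine, 3 colony stimulating factors and 2 adhesion ligands. RNA-seq was performed on an immortalized HBEC line after 24 h, with 3 libraries of cells given cockroach extract (CRE), an allergen mixture, and 3 of cells given CRE and VAF347, a small-molecule agonist of the aryl hydrocarbon receptor (AhR). VAF347 was added before CRE, and both groups received CRE. The comparison addressed which transcripts of allergen-exposed HBECs differed once AhR was activated. Cells with neither agent and cells with VAF347 alone were not analysed here, so a level under CRE is not a response to CRE. Libraries held 8873160 to 10750283 counts, all from 1 cell line, and nothing in the labels says whether replicates were separate cultures.

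Chemokines are small secreted proteins that draw leukocytes through G protein-coupled receptors. CXC chemokines with the ELR motif act on neutrophils through CXCR1 and CXCR2, whereas most CC chemokines act on monocytes, lymphocytes or eosinophils. Colony stimulating factors maintain and activate myeloid cells, and ICAM1 and VCAM1 on the cell surface hold leukocytes by their integrins. In airway epithelium many of these genes are known as targets of NF-kappaB, and several of their messages carry AU-rich elements that shorten their life.

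Of the 44 members, 15 (34.1%) were detected, defined as over 3 counts in at least 1 library. Among the classes, 7 of 14 CXC chemokines and 5 of 24 CC chemokines passed this limit. The filter on low counts left 9 members for the test, *CXCL16*, *ICAM1*, *CCL2*, *CXCL8*, *CXCL1*, *CXCL2*, *CXCL6*, *CCL28* and *CSF1*. With CRE + VAF347, *CCL28*, *CSF1* and *ICAM1* fell and 0 members rose (edgeR quasi-likelihood test, adjusted over all 15373 genes tested, with thresholds of 0.05 on the adjusted p and 0.5 on the log2 scale in either direction). Among all genes tested, 1.71% fell and 0.501% rose at these thresholds. With the adjusted p alone, again the same 3 members fell and 0 rose, beside 4.07% and 1.35% of all genes tested. At an unadjusted p of 0.05 and the same fold, *CXCL2* rose and *CCL2* also fell, and DESeq2's Wald test and limma voom called 0 members higher. The median log2 fold change over the tested members was -0.43, and 8 of 9 lay below 0, against a median of 0.01 with 47.9% below 0 over all genes tested. The groups did not overlap for 4 tested members, 3 lower and 1 higher, where 14.8% of all genes tested lay wholly lower and 12.5% wholly higher.

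**Figure D1:**
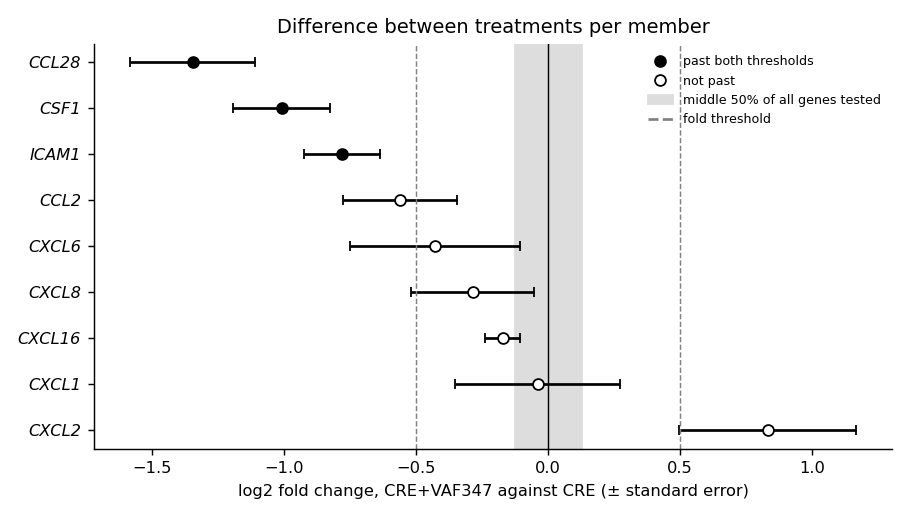
Log2 fold change of CRE + VAF347 against CRE (horizontal axis) for the 9 tested members, with bars of 1 standard error from the edgeR fit. Filled points mark *CCL28*, *CSF1* and *ICAM1*, the members past both thresholds, dashed lines mark the fold threshold of 0.5 in each direction, and the grey band, from -0.127 to 0.13, holds the middle 50% of all genes tested.

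Treatment was checked on genes known to be induced by AhR. *CYP1A1*, a cytochrome P450 and the classical AhR target, had 6, 8 and 5 counts with CRE and 454, 412 and 460 after VAF347 and CRE, and its log2 fold change was 6.20. *CYP1B1*, *TIPARP* and *AHRR* also rose, by 3.14, 2.24 and 2.16 on the log2 scale. Libraries of a group correlated at r of 0.986 to 0.99 on log2 CPM, and CRE replicate 3 stood apart from CRE replicates 1 and 2 in its counts, where the chi-square averaged 9.21 and 8.95 per gene against 2.47 between those 2. Over 11085 genes, which are not independent, the log2 fold change and transcript GC content had a Spearman's rho of -0.36. The transcripts of tested members ran from 34.1% GC (*CXCL8*) to 57.8% (*CSF1*), and with an offset for GC the same 3 members passed the thresholds.

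Levels of different genes were compared in TPM (transcripts per 1000000), which divide by transcript length. *CXCL16* was the most abundant member, at a level of 96.6 ± 10.1 TPM (SD, n = 3) with CRE and 84.3 ± 6.78 TPM with CRE + VAF347. It alone held 48.7% to 63.1% of the summed TPM of all members in a library. Next came *ICAM1* at 29.2 ± 6.09 and 17.1 ± 3.40 TPM and *CCL2* at 26.4 ± 5.52 and 17.0 ± 3.75 TPM, and the ranges of these neighbours overlapped within each group. *CXCL8* followed at a mean of 11.8 TPM over the 6 libraries, then *CXCL1* at 5.59, *CXCL2* at 4.48, *CXCL6* at 4.26, *CCL28* at 3.13 and *CSF1* at 2.25. The order of these differed between groups. With CRE, *CXCL6* stood at 4.65, *CCL28* at 4.44, *CXCL2* at 3.29 and *CSF1* at 3.13 TPM. With CRE + VAF347, *CXCL2* stood at 5.67, *CXCL6* at 3.86, *CCL28* at 1.83 and *CSF1* at 1.37 TPM. In that group *CXCL2* was also above *CXCL1*, at 5.42 TPM, and the untested *CXCL3*, at 1.475 TPM, was above *CSF1*. The 4 most abundant members made up 82.9% to 86.0% of the sum. That sum was 176, 200 and 208 TPM in the CRE libraries and 152, 165 and 142 TPM in the CRE + VAF347 libraries, so every CRE library held more than any CRE + VAF347 library.

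**Figure D2:**
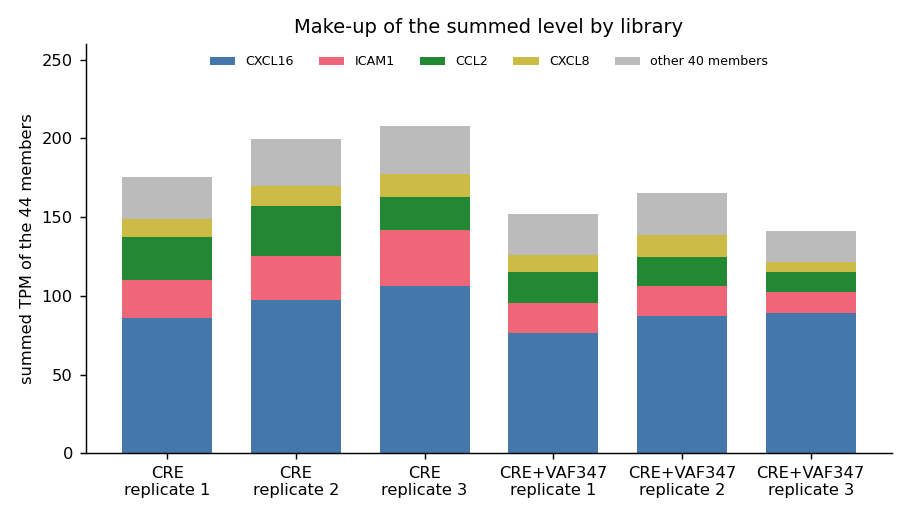
Summed level of the 44 members in TPM (vertical axis, from 0) in each of the 6 libraries, with the share of *CXCL16*, *ICAM1*, *CCL2*, *CXCL8* and the remaining 40 members in colour. *CXCL16* fills 48.7% to 63.1% of a bar, and the CRE bars reach 176 to 208 TPM against 142 to 165 TPM with CRE + VAF347.

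*ICAM1*, the immunoglobulin-family ligand of the leukocyte integrins LFA-1 and Mac-1, lies on the plus strand of chromosome 19 (GRCh38, chr19:10271093-10286615). Its counts were 464, 622 and 723 with CRE, or 48.0, 61.0 and 67.5 CPM (counts per 1000000, scaled by TMM). With CRE + VAF347 it had 343, 359 and 270 counts, or 38.5, 37.7 and 26.9 CPM. Every CRE library was above every CRE + VAF347 library, and CRE replicate 1 lay nearest to the treated group. The mean fell from 58.8 ± 9.94 to 34.4 ± 6.48 CPM (SD, n = 3), a 1.72-fold decrease with a log2 fold change of -0.78 (SE 0.144, adjusted p = 0.00994, edgeR). It passed the thresholds without any 1 library, at adjusted p-values of 0.00269 to 0.0443. The long non-coding genes *ICAM4-AS1* and *LIMASI* overlap *ICAM1* on the opposite strand, and since the use of strand in counting is not given in the sources used here, their reads could not be told apart with certainty. Their summed mean was 47.6 counts with CRE and 33.4 with CRE + VAF347, and *ICAM1* summed with both gave a log2 fold change of -0.75 (SE 0.129, adjusted p = 0.00685).

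The promoter of *ICAM1* is printed because it carries both a kappaB core, the shorter of the NF-kappaB motifs searched, and an AhR core. RefSeq (GRCh38.p14) places it at chr19:10270900-10271119 on the plus strand, and it is read here to the base before the RefSeq start, position -1. Capitals mark, in order, a kappaB core (GGAANTTCC) from -186, a TATA box (TATAAA, gene strand) from -30 and the AhR core (GCGTG) read on the other strand from -20.
ICAM1: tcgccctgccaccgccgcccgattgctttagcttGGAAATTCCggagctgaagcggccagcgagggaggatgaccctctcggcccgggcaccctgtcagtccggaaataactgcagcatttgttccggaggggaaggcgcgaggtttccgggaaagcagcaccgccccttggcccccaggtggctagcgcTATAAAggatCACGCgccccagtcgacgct
Over the 35116 human promoter windows in the same table, each from 250 bases before a start to 50 after it, 0.965% held the kappaB core, 7.33% this TATA box and 36.5% the AhR core. The kappaB core was chosen with the members' promoters in view, so its share among them is a description only. These matches are letters and not measured binding.

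*VCAM1*, the ligand of the integrin VLA-4 and the other adhesion molecule of the set, was at 0 counts in all 6 libraries. A count of 0 allows up to 3 counts, which is 0.279 to 0.338 CPM in these libraries before scaling, a limit that covers counting error only. Among 12 other adhesion ligands, 7 were tested, with a median log2 fold change of -0.07, and *ICAM4* alone fell. *ICAM4*, the Landsteiner-Wiener blood group antigen encoded beside *ICAM1*, went from 8.70 ± 0.269 to 4.48 ± 0.370 CPM (log2 fold change -0.95, SE 0.144, adjusted p = 0.00362). *F11R*, the tight junction molecule JAM-A, and *ALCAM*, the ligand of CD6, had log2 fold changes of -0.07 and -0.12 that did not pass the test. Of 9 integrin chains that bind ICAM1 or VCAM1, 3 were tested, with a median of -0.07. *ITGA4*, the alpha chain of VLA-4, fell by 0.77 on the log2 scale (SE 0.196, adjusted p = 0.0446), a call lost on leaving out any 1 library, with a replicate block and with DESeq2's Wald test. *ITGB1*, its beta chain, had a log2 fold change of -0.07 (adjusted p = 0.559).

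*CSF1*, which encodes macrophage colony stimulating factor, lies at chr1:109910242-109930992 on the plus strand and overlaps no other annotated gene. Its counts were 59, 70 and 73 with CRE and 29, 37 and 27 with CRE + VAF347. These correspond to 6.11, 6.87 and 6.82 CPM against 3.26, 3.89 and 2.69 CPM, with no overlap between the groups. The mean fell from 6.60 ± 0.426 to 3.28 ± 0.598 CPM, a 2.01-fold decrease (log2 fold change -1.01, SE 0.183, adjusted p = 0.00896). *CSF2*, encoding GM-CSF, was too low to test, with 5, 4 and 2 counts against 2, 0 and 1, and its groups met at 2 counts. *CSF3*, encoding G-CSF, never exceeded 3 counts.

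Among 5 genes for CSF receptors and the second CSF1 receptor ligand *IL34*, only *CSF1R* was tested. *CSF1R*, the receptor of CSF1, fell from 25.9 ± 4.02 to 17.3 ± 2.34 CPM (log2 fold change -0.59, SE 0.134, adjusted p = 0.0265). The ligand and its receptor were thus both lower with CRE + VAF347, but the call of *CSF1R* was lost without CRE replicate 2 and without any of the CRE + VAF347 libraries.

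*CCL28*, a mucosal epithelial chemokine that acts through CCR10 and CCR3, showed the largest decrease of the tested members. It lies on the minus strand at chr5:43376645-43412391, with no overlapping gene. Counts were 49, 41 and 53 with CRE and 21, 17 and 14 with CRE + VAF347. In CPM the libraries stood at 5.07, 4.02 and 4.95 against 2.36, 1.79 and 1.40, so the lowest CRE library lay well above the highest CRE + VAF347 library. The mean fell from 4.68 ± 0.575 to 1.85 ± 0.484 CPM, a 2.54-fold decrease (log2 fold change -1.35, SE 0.237, adjusted p = 0.00773).

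RefSeq holds windows for more than 1 start of *CCL28*. The window of the first held none of the motifs searched, and the bases before the second, at chr5:43397138-43397317 on the minus strand, are printed since they carry 3 AhR cores, in capitals, from positions -172 and -72 and, on the other strand, from -29.
CCL28: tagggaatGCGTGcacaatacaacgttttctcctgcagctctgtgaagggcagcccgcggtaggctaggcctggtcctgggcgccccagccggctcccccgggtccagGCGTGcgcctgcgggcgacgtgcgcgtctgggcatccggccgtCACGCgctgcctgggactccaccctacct
Of the 32 members with a window, 8 held the AhR core, beside the 36.5% of all promoter windows given above. A member was counted if any of its windows held the core. Among the 11 detected members with a window, 4 held it, *CCL28*, *ICAM1*, *CXCL5* and *CCL25*. *CXCL1*, *CXCL2*, *CXCL3*, *CXCL6*, *CXCL8*, *CSF2* and *CCL27* had no such match in theirs. For *CSF1*, *CCL2*, *CCL5* and *CXCL16* there was no window to search. Any link between the core and the differences between the treatments was not tested.

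Calls for *CCL28* and *CSF1* depended on CRE + VAF347 replicate 3, the lowest treated library for both. Without it the adjusted p was 0.0516 for each, and *ICAM1* was the only member past the thresholds. On the TPM scale (limma on log2(TPM + 1)) the decreases were 0.74 for *ICAM1*, 0.96 for *CCL28* and 0.79 for *CSF1*, with adjusted p-values of 0.152, 0.171 and 0.310, so no member was called there, nor when glmTreat asked for a change larger than the fold threshold. With 3 libraries against 3, an exact two-sided permutation test cannot go below p = 0.1, the value of all 3 genes.

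**Figure D3:**
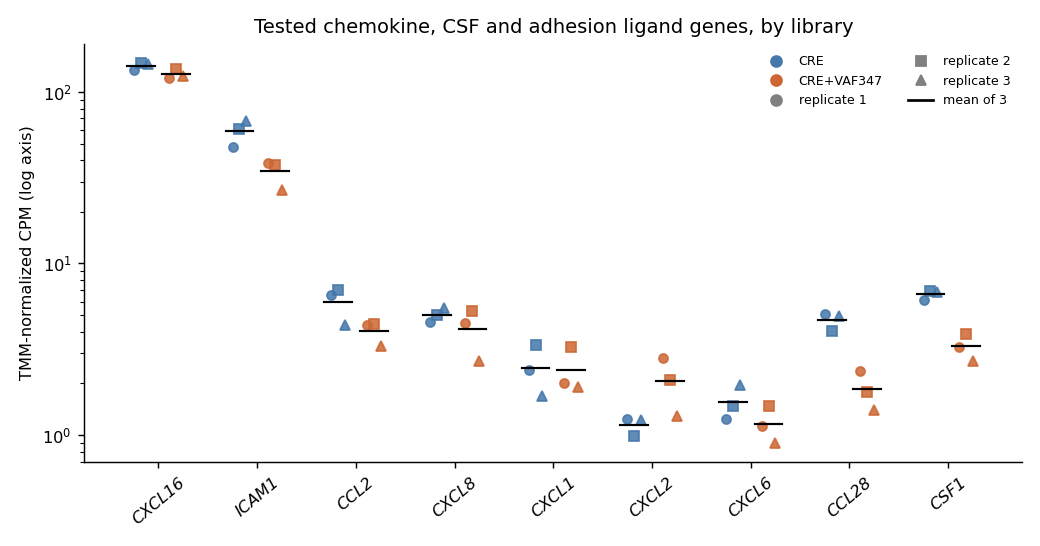
Level of each tested member in TMM-normalized CPM (vertical axis, log scale) in every library, CRE in blue and CRE + VAF347 in orange, with a marker shape per replicate and a bar at the mean of 3. *ICAM1*, *CCL28* and *CSF1* lie lower in all treated libraries, *CXCL2* lies higher, and the groups of the other members overlap.

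*CCL2*, the monocyte attractant that acts through CCR2, lies at chr17:34255274-34257208 on the plus strand, on the chromosome that holds 16 of the members. It had 63, 71 and 47 counts with CRE against 39, 42 and 33 with CRE + VAF347, or 6.52, 6.97 and 4.39 CPM against 4.38, 4.42 and 3.29 CPM. CRE replicate 3 lay among the treated libraries. The means were 5.96 ± 1.38 and 4.03 ± 0.639 CPM, and the log2 fold change of -0.56 (SE 0.216, adjusted p = 0.166) did not pass the test. Without CRE replicate 3 the adjusted p was 0.03, and *CCL2* joined the members that fell.

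The remaining CC chemokines were scarce. *CCL5*, an attractant of T cells and eosinophils, had 9, 9 and 12 counts with CRE and 1, 5 and 9 with CRE + VAF347, too few to test and with the groups touching at 9. *CCL25*, known from thymus and gut, reached 5 counts in CRE replicate 2 only, and *CCL27*, a skin chemokine that shares CCR10 with *CCL28*, reached 4 counts after rounding in CRE replicate 3. *CCL27* overlaps *IL11RA* on the opposite strand and a gene without a symbol on each strand, so its few counts may not all be its own. *CCL5* and *CXCL5* each overlap a gene without a symbol on the opposite strand. Summed over all 24 genes, the CC chemokines came to 125, 130 and 121 counts with CRE and 65, 69 and 59 with CRE + VAF347. Most of these counts came from *CCL2* and *CCL28*. Scaled for depth, the sums were 13.0, 12.7 and 11.3 CPM with CRE and 7.30, 7.30 and 5.88 CPM with CRE + VAF347. *CCL17*, *CCL20*, *CCL22*, *CCL24* and *CCL3* had at most 1 to 3 counts in any library. *CCL1*, *CCL11*, *CCL13*, *CCL14*, *CCL15*, *CCL16*, *CCL18*, *CCL19*, *CCL21*, *CCL23*, *CCL26*, *CCL4*, *CCL7* and *CCL8* were at 0 in all 6 libraries. The eotaxins *CCL11*, *CCL24* and *CCL26*, which attract eosinophils through CCR3, and the CCR4 ligands *CCL17* and *CCL22*, known from type 2 inflammation, were thus at or under the floor of 3 counts in both groups.

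**Figure D4:**
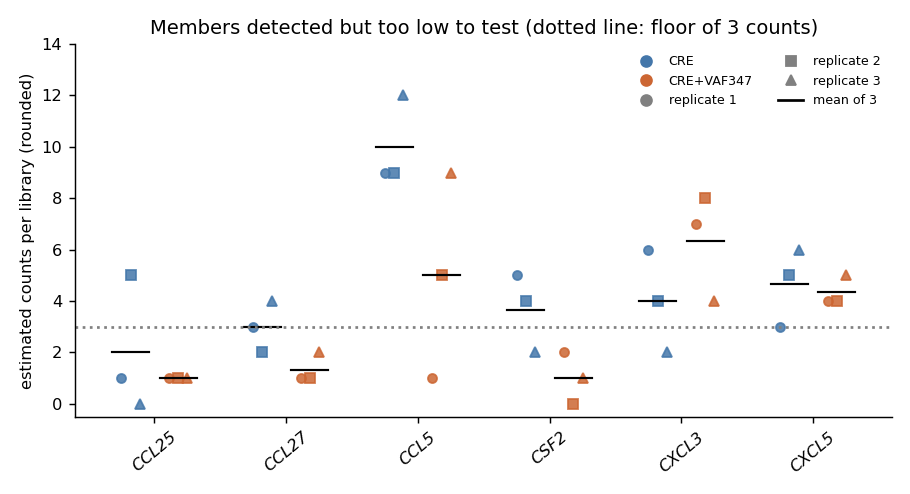
Rounded estimated counts (vertical axis) of the 6 members that were detected but too low to test, by library, with the floor of 3 counts as a dotted line and a bar at the mean of 3. No member exceeds 12 counts, and *CCL5* with CRE is the only one whose 3 libraries all hold 9 or more.

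Neutrophil-attracting ELR+ CXC chemokines did not move as a group. Their 6 genes, *CXCL1*, *CXCL2*, *CXCL3*, *CXCL5*, *CXCL6* and *CXCL8*, lie in a cluster on chromosome 4, where 10 members are found. Summed over them, the level was 10.3, 11.7 and 11.1 CPM with CRE and 11.7, 13.4 and 7.68 CPM with CRE + VAF347, means of 11.1 ± 0.665 and 10.9 ± 2.91 CPM. The treated libraries spanned a range that held all CRE libraries.

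*CXCL8*, which encodes interleukin-8, had 44, 51 and 59 counts with CRE and 40, 50 and 27 with CRE + VAF347. In CPM these were 4.55, 5.00 and 5.51 against 4.49, 5.26 and 2.69. Treated replicates 1 and 2 lay close to or within the CRE range and treated replicate 3 below it, and the log2 fold change was -0.29 (SE 0.233, adjusted p = 0.527). *CXCL6* (GCP-2) stood at 1.24, 1.47 and 1.96 CPM against 1.12, 1.47 and 0.898 CPM, overlapping groups with a log2 fold change of -0.43 (SE 0.321, adjusted p = 0.490). *CXCL1* (GRO-alpha) stood at 2.38, 3.34 and 1.68 CPM against 2.02, 3.26 and 1.90 CPM. Its log2 fold change was -0.04 (SE 0.314, adjusted p = 0.962), and leaving out 1 library moved it between -0.34 and 0.24.

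*CXCL2* (GRO-beta) was the only tested member with a higher level in every treated library. It had 12, 10 and 13 counts with CRE and 25, 20 and 13 with CRE + VAF347, or 1.24, 0.981 and 1.22 CPM against 2.81, 2.10 and 1.30 CPM. The gap between the groups was narrow, since treated replicate 3 lay just above the CRE libraries. Means of 1.15 ± 0.144 and 2.07 ± 0.757 CPM gave a log2 fold change of 0.83 (SE 0.335) that did not pass the test after adjustment (adjusted p = 0.184). Its paralog *CXCL3* was too low to test, with 6, 4 and 2 counts against 7, 8 and 4. *CXCL5* (ENA-78) had 3, 5 and 6 counts against 4, 4 and 5. Because *CXCL1*, *CXCL2* and *CXCL3* have similar sequences, reads may have been split between them in counting, and their values are uncertain for that reason. Summed, they had 41, 48 and 33 counts with CRE and 50, 59 and 36 with CRE + VAF347, and their log2 fold change was 0.35 (SE 0.241, adjusted p = 0.442).

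The promoters of these paralogs are printed to show how alike their upstream sequences are, and that of *CXCL8* is printed beside them. They lie in GRCh38.p14 at chr4:73869283-73869392 on the plus strand (*CXCL1*), chr4:74099196-74099305 on the minus strand (*CXCL2*), chr4:74038690-74038799 on the minus strand (*CXCL3*) and chr4:73740409-73740568 on the plus strand (*CXCL8*), each read to the base before its RefSeq start. Capitals mark the NF-kappaB consensus with the kappaB core inside it in the first 3, and in *CXCL8* an AP-1 site (TGANTCA) from -137, a kappaB core from -91 and a TATA box from -31.
CXCL1: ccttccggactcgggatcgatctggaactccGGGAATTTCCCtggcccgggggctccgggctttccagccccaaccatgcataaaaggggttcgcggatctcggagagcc
CXCL2: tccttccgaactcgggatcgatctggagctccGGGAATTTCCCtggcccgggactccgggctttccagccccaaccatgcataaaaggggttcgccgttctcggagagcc
CXCL3: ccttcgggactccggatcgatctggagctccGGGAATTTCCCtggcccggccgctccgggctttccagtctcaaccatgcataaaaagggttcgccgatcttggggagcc
CXCL8: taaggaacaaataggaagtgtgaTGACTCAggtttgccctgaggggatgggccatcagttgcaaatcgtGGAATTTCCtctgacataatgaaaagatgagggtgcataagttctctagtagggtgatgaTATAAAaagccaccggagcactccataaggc
The consensus began at -79, -78 and -79 in *CXCL1*, *CXCL2* and *CXCL3*, at -90 in *CXCL6* and at -91 in *CXCL5*. Over the 100 bases before the start, bases were compared position by position without gaps. *CXCL1* and *CXCL3* shared 90 bases, *CXCL1* and *CXCL2* 73 and *CXCL2* and *CXCL3* 67. *CXCL6* and *CXCL8* shared 30 to 35 with each other and with these 3. The consensus of *CXCL2* starts at -78 rather than -79, so bases from there upstream were compared out of step with *CXCL1* and *CXCL3*. The values of 73 and 67 therefore understate how alike these sequences are. Of the 11 detected members with a window, 5 held the NF-kappaB consensus and 7 the kappaB core, while 11.3% and 0.965% of all promoter windows did. A member was counted if any of its windows held the motif, so these shares are not strictly alike. All of these holders except *ICAM1* belong to the ELR+ cluster on chromosome 4, and such paralogs are not separate observations. Among all 32 members with a window, 11 held the consensus and 10 the core. The AP-1 site was found in 2 and the TATA box in 3 of the 11, in 7 and 15 of the 32, and in 7.71% and 7.33% of all windows. The kappaB core was held by *ICAM1*, which fell, and by *CXCL1*, *CXCL2*, *CXCL6* and *CXCL8*, which did not pass the test. Its part in their levels was not tested.

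AU-rich elements of the 3′ untranslated regions were counted in the MANE Select transcripts of GENCODE v44. The element TATTTAT occurred in 9 of the 15 detected members, and in 31.6% of 19061 such transcripts. *CXCL2* had 8 copies, *CSF2* 7, *CXCL1* and *CXCL8* 4 each, *CXCL3* and *CXCL5* 3 each, *CCL28* and *ICAM1* 2 each and *CSF1* 1. The other detected members, *CXCL6*, *CXCL16*, *CCL2*, *CCL5*, *CCL25* and *CCL27*, had 0. Any link between the number of copies and the differences between the treatments was not tested. Of 10 regulators of the decay of such messages, all were tested and 0 passed both thresholds, with a median log2 fold change of -0.07. The most abundant of them, *HNRNPD* (AUF1) and *KHSRP*, had log2 fold changes of 0.03 and -0.18 (adjusted p = 0.895 and 0.181). With the adjusted p alone 2 of the list fell, *ZFP36L2* with a log2 fold change of -0.49 (adjusted p = 0.00465) and *ZC3H12A* with -0.35 (adjusted p = 0.0138), both under the fold threshold. Without CRE replicate 1 or 2, or CRE + VAF347 replicate 1 or 2, 1 gene of the list passed both thresholds.

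*CXCL16*, a transmembrane chemokine for CXCR6 that proteases release from the cell surface, was the member measured with the most counts. It lies at chr17:4733533-4739928 on the minus strand. Counts were 1303, 1502 and 1553 with CRE and 1069, 1286 and 1245 with CRE + VAF347, and the CPM were 135, 147 and 145 against 120, 135 and 124. CRE replicate 1 and CRE + VAF347 replicate 2 lay at nearly the same level, so the groups overlapped. The means of 142 ± 6.65 and 127 ± 7.80 CPM gave a log2 fold change of -0.17 (SE 0.066, adjusted p = 0.165) that did not pass the test and did so under none of the settings tried. Summed with *MED11* and *ZMYND15*, which overlap it on the opposite strand, the log2 fold change was -0.15 (adjusted p = 0.209). Among 5 genes for ectodomain proteases and *DPP4*, all were tested and 0 passed both thresholds, with a median of -0.15. *ADAM10* and *ADAM17*, which release CXCL16, had log2 fold changes of -0.15 and -0.01 (adjusted p = 0.171 and 0.938). *DPP4*, which cleaves chemokines, fell with the adjusted p alone (log2 fold change -0.39, adjusted p = 0.0202).

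The interferon-inducible CXCR3 ligands *CXCL9*, *CXCL10* and *CXCL11*, which attract activated T cells, were at or under the floor, with summed counts of 2, 2 and 4 with CRE and 2, 1 and 1 with CRE + VAF347. *CXCL12*, *CXCL14* and *CXCL17* had at most 1 to 3 counts in any library, and *CXCL13* was at 0 in all of them. *CX3CL1*, a membrane-bound chemokine, was at 0 in the CRE libraries and had 2, 1 and 0 counts with CRE + VAF347. In all, 12 members had at most 1 to 3 counts and 17 had 0 in every library, and for these 29 no difference between the treatments was detectable at this depth.

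**Figure D5:**
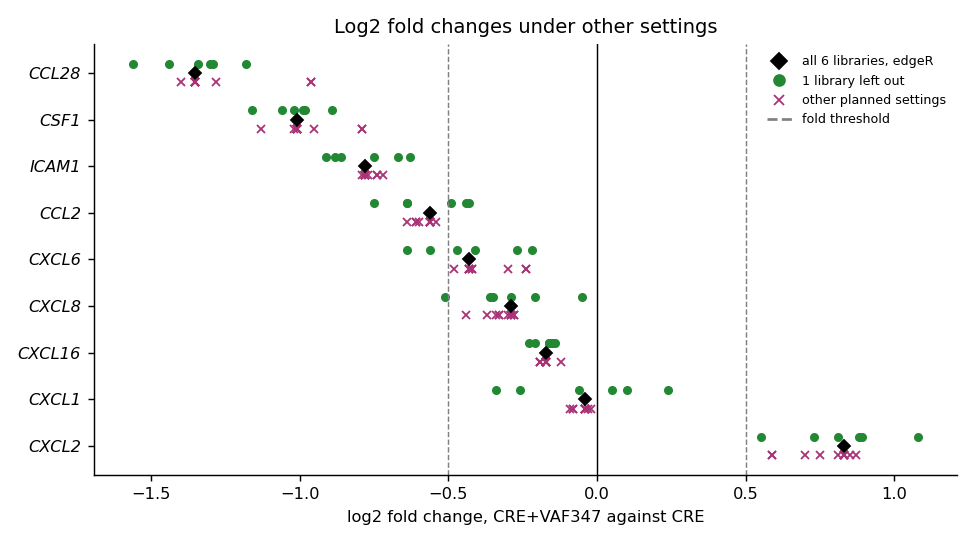
Log2 fold change of CRE + VAF347 against CRE (horizontal axis) for the 9 tested members with all 6 libraries (black), with each library left out in turn (green) and under the other planned settings (crosses); dashed lines mark the fold threshold of 0.5. *CCL28*, *CSF1* and *ICAM1* stay below -0.5 throughout, *CXCL2* stays above 0 and *CXCL1* falls on both sides of 0.

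Related genes were counted to place these values. Of 18 chemokine receptors, 13 were at or under the floor and 3 were tested, *CXCR5*, *CCR3* and *CCR10*, with 0 called and a median log2 fold change of -0.14. *CXCR5*, the receptor of CXCL13, stood at 10.8 ± 0.244 and 11.6 ± 0.909 CPM, and *CCR3* at 5.12 ± 0.674 and 4.40 ± 0.589 CPM. None of the 5 atypical receptors was high enough to test. Among 12 chemokine-like ligands with other names, 10 were in the table and 2 were tested, with 0 called and a median of 0.06. These were *MIF*, with a log2 fold change of -0.02, and *CKLF*, with 0.14.

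All 16 NF-kappaB factors and feedback genes were tested, and 1 fell past both thresholds, *TNFAIP2*, a gene induced by tumour necrosis factor, from 533 ± 31.9 to 345 ± 20.9 CPM (log2 fold change -0.63, SE 0.069, adjusted p = 0.000514). *TNIP1*, a ubiquitin-binding inhibitor of the pathway, had a log2 fold change of -0.22 (adjusted p = 0.129), and the list had a median of -0.05. With the adjusted p alone 5 of the list fell and 0 rose, beside 4.07% and 1.35% of all genes tested. Besides *TNFAIP2* they were *NFKBIA*, which encodes the inhibitor IkappaB-alpha, its relative *NFKBIZ*, the feedback inhibitor *TNFAIP3* and the ubiquitin ligase *BIRC3*, with log2 fold changes of -0.29, -0.36, -0.33 and -0.39 (adjusted p = 0.0111, 0.0261, 0.0487 and 0.0257). Of 12 interferon response genes, all tested, 5 fell and 0 rose, with a median of -0.44. They were the guanylate-binding *GBP2* and *GBP1* (-0.85 and -0.56), the antiviral *MX1* and *IFIT1* (both -0.66) and the oligoadenylate synthetase *OAS1* (-0.54), and 3 to 7 genes of the list fell with 1 library left out. Of 12 inflammatory cytokines, 8 were tested, and *IL6* alone passed both thresholds, upwards. *IL6* stood at 6.31, 5.98 and 4.39 CPM with CRE and 9.89, 12.8 and 11.7 CPM with CRE + VAF347, with a log2 fold change of 1.05 (SE 0.166, adjusted p = 0.00468). *IL18* and *LIF* had log2 fold changes of 0.40 (adjusted p = 0.0162, under the fold threshold) and 0.24 (adjusted p = 0.111), and the median of this list was 0.32. Over all genes tested, 2.21% passed in either direction. On log2(TPM + 1), 1 adhesion ligand other than *ICAM1* and *VCAM1* and 1 cytokine were called, whereas no integrin, CSF receptor, NF-kappaB or endothelial gene of these lists was, and 1 interferon response gene was.

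The labelled cell type was checked against markers. Of 9 epithelial markers, 7 were tested and 0 passed both thresholds, with summed levels of 4522 to 4823 CPM with CRE and 4349 to 4470 CPM with CRE + VAF347. *KRT8* and *KRT18* were abundant. Of the basal markers, *KRT5* stood at 15.9 and 12.3 CPM and *KRT17* at 150 and 125 CPM, whereas *KRT14* and *TP63* were at or under the floor, and *SCGB1A1* of club cells and *MUC5AC* of goblet cells were at 0. Among 4 endothelial markers, *VWF* and *CDH5* fell, with log2 fold changes of -1.45 and -0.84 (adjusted p = 0.0107 and 0.00119), and the summed level was 27.3 to 29.7 CPM with CRE and 17.9 to 21.8 CPM with CRE + VAF347, with *PECAM1* at or under the floor. *KDR*, the other one tested, stood at 7.35 and 8.15 CPM in overlapping groups (log2 fold change 0.14, adjusted p = 0.683). Without CRE + VAF347 replicate 2 or 3, only 1 of these markers was called. The 6 leukocyte markers summed to 27.8 to 32.2 CPM and 19.0 to 25.5 CPM, mostly from *CD68*, with 0 called and *PTPRC* at or under the floor. The 7 fibroblast markers summed to 38.4 to 47.6 CPM and 37.2 to 40.6 CPM, with 0 called and *PDGFRA*, *DCN* and *LUM* at 0. Of 4 markers of differentiated airway cells, only *FOXJ1* was tested, and its log2 fold change of -0.48 (adjusted p = 0.488) did not pass. With the adjusted p alone, *KRT19* and *KRT17* fell, with log2 fold changes of -0.38 and -0.27 (adjusted p = 0.0265 and 0.024). The endothelial, leukocyte and epithelial sums lay wholly lower with CRE + VAF347, the same way as *ICAM1*, *CSF1* and *CCL28*. This was not particular to cell type markers. The summed CPM of the CSF receptor, other adhesion ligand, integrin, ectodomain protease, NF-kappaB, mRNA decay and interferon response lists also lay wholly lower. Those of the inflammatory cytokines and the AhR-induced genes lay wholly higher, and those of the remaining lists overlapped. The part of the marker genes in these results was not tested. In bulk libraries, fewer cells of a type and less RNA per cell cannot be told apart.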

How the data were processed

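RNA-seq of 6 HBEC libraries was analysed, grouped by the labels of the samples, which name the table columns; 0 columns of per-sample values were unmatched. The authors enriched poly(A) RNA, sequenced paired ends and deposited estimated counts per gene symbol from Salmon, not scaled to depth, and TPM values from the same step. The labels name hg38; the Salmon version, annotation and strand setting are not given in the sources used here. A deposited table of the authors' own log2 fold changes and p-values was not used. Gene positions are from GENCODE v44 (GRCh38), in which all 61228 names were found, and promoter windows from RefSeq (GRCh38.p14).

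Counts were rounded (14.5% of values were not whole) and fitted with edgeR 4.0.16 (R 4.3.3) after filterByExpr and TMM scaling, by the quasi-likelihood test and Benjamini-Hochberg adjustment over all genes tested. SE is the log2 fold change divided by the square root of F. Since the labels name no separate cultures, p-values measure the spread between these libraries, which may be technical. Library totals of 8873160 to 10750283 make 1 count 0.093 to 0.113 CPM. Every member is named. From each of 17 lists of related genes, called genes are named, at most 5 by size, or with fewer than 2 called the 2 of highest mean CPM. Genes of these lists that fell with the adjusted p alone, *IL18*, *KDR*, *KRT5* and the markers at or under the floor were named after their values were seen. The members and lists were chosen with earlier results of these data known. On simulated counts over 15141 genes with 200 changed, edgeR recovered 74 of 90 changes of 1 and 105 of 110 of 2 on the log2 scale, with 0 in the wrong direction and 23 calls among unchanged genes. These simulated calls used the adjusted p alone, without the fold threshold.

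Alternatives were DESeq2 1.42.0 (size factors, Wald test), limma 3.58.1 (voom; TPM on a log2 scale after adding 1 or 0.1, keeping genes with a mean TPM of at least 1 or all genes), other filters and thresholds, glmTreat, a GC offset, the replicate number as a block, and leaving out each library. Sums with overlapping genes and of *CXCL1*, *CXCL2* and *CXCL3* were added after seeing the data.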

Additional observations from a re-analysis of the deposited data

How the results depend on the processing

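The fall of *ICAM1*, *CCL28* and *CSF1* was called with DESeq2 size factors, DESeq2's Wald test, voom, no filter, a minimum of 10 counts, the GC offset and any fold change. Members that fell numbered 0 under glmTreat and on all TPM settings, and 1 to 4 with 1 library left out (1 without CRE + VAF347 replicate 3, 4 with *CCL2* without CRE replicate 3). At an unadjusted p of 0.05, 4 fell and 1, *CXCL2*, rose. The log2 fold change of *CXCL1* turned positive without CRE replicate 2 (0.24), CRE + VAF347 replicate 1 (0.05) or replicate 3 (0.10), and summed with *CXCL2* and *CXCL3* (0.35), and ran from -0.34 to 0.24 with 1 library left out. The 263 lower and 77 higher genes became 411 and 187 without a filter, 50 and 34 on log2(TPM + 1), 52 and 32 on log2(TPM + 0.1), 12 and 20 on unfiltered TPM, 626 and 207 at any fold change, 502 and 247 at an unadjusted p, 21 and 26 under glmTreat, and 143 to 270 and 58 to 110 with 1 library left out; the causes were not tested. Detected members numbered 10 at over 10 counts and 22 at a mean TPM of at least 0.1. Same-numbered libraries correlated at 0.07, 0.10 and 0.05 and others at -0.05 to -0.02, each library best with its own number, as a hint from the data; they share only a number, and a replicate block gave 3 members and 241 genes lower, and 0 and 78 higher. Depth limits the 29 members at or under 3 counts.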
